A study of Mus musculus with 12 samples.

Results

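The genes described here are the 3 D-type cyclins (Ccnd1, Ccnd2 and Ccnd3), their kinases Cdk4 and Cdk6, the inhibitors Cdkn1a, Cdkn1b, Cdkn2c and Cdkn2d, and their main substrate Rb1. They were chosen by mouse gene symbol, with earlier results of these data known, and all 10 were found among the 54532 genes of the deposited table and among the 11335 genes tested. RNA sequencing had been done on 12 libraries from cultures of wild-type mouse bone marrow, in 4 groups of 3. Marrow cells from femurs and tibiae were expanded with CMG, which supplies M-CSF, the growth and survival factor of macrophages. Macrophages were kept in it without RANKL, and osteoclasts, the bone-resorbing cells that form when macrophages fuse, were obtained with RANKL at 100 ng/mL per the sample source (the culture protocol gives a range that ends there). On day 5 both cell types were left untreated or received lipopolysaccharide (LPS, a bacterial outer-membrane component that activates TLR4) at 100 ng/mL for 3 h. All groups therefore share the wild-type genotype and the M-CSF source, and the osteoclast cultures can still hold cells that did not fuse. The labels do not say whether the 3 libraries of a group came from separate mice or cultures, so the p-values measure the spread between these libraries only, which may be technical.

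D-type cyclins are made in response to growth factors such as M-CSF and bind CDK4 or CDK6, and the complexes phosphorylate the retinoblastoma protein RB, which then releases E2F factors that drive entry into S phase. The INK4 inhibitors p18 (Cdkn2c) and p19 (Cdkn2d) bind CDK4 and CDK6 directly, while the CIP/KIP inhibitors p21 (Cdkn1a) and p27 (Cdkn1b) bind cyclin-CDK complexes, above all those of CDK2. Macrophages in M-CSF proliferate, mature osteoclasts do not divide, and LPS is known to halt the proliferation of cultured macrophages.

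The unit is FPKM, fragments per kilobase of merged exons scaled by 1 factor per library, so that levels can be compared between genes. Differences are on the log2(FPKM + 1) scale, from limma fitted to all 12 libraries with Benjamini-Hochberg adjustment over the 11335 genes. "Called" means an adjusted p under 0.05, and "fold" is the ratio of mean FPKM. The libraries held 14875560 to 19278653 reads as recovered from the values, and 9728 to 10301 genes per library reached 1 FPKM. The 10 osteoclast markers checked (such as Acp5, Ctsk and Mmp9) summed to 16.3 to 29.0 FPKM in macrophages and 29220 to 32220 FPKM in osteoclasts. All 8 macrophage markers were at 1 FPKM or more in every macrophage library, and 6 of the 8 were in osteoclasts. T cell, B cell and erythroid markers summed to at most 0.135 FPKM in any library. Stromal markers summed to 24.8 to 34.7 FPKM in macrophages, mostly Col1a1 and Col1a2, and to at most 0.605 FPKM in osteoclasts, and neutrophil markers to 4.25 to 12.3 and 0.247 to 1.76 FPKM. Their part in the results was not tested. In such bulk libraries fewer cells of a type and less RNA per cell cannot be told apart.

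In untreated macrophages Ccnd1 was the highest of the 10 genes and Ccnd2 the lowest by mean, and in untreated osteoclasts 9 of the 10 were lower than in macrophages, with Cdkn1b, which encodes p27, the one that was higher. Over all genes tested 77.8% differed in that comparison, 39.0% lower and 38.8% higher. Of the 9, Ccnd2 reached 1 FPKM only in macrophages, so its being lower is a description. LPS changed 8 of the 10 in macrophages, where 69.9% of all genes were called, and 3 in osteoclasts, where 17.7% were. In macrophages it lowered Ccnd1 and raised Ccnd2 until both stood at like levels, raised Cdk6 but not Cdk4, and raised Cdkn1a to the highest level of any of these genes in any group.

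**Figure D1:**
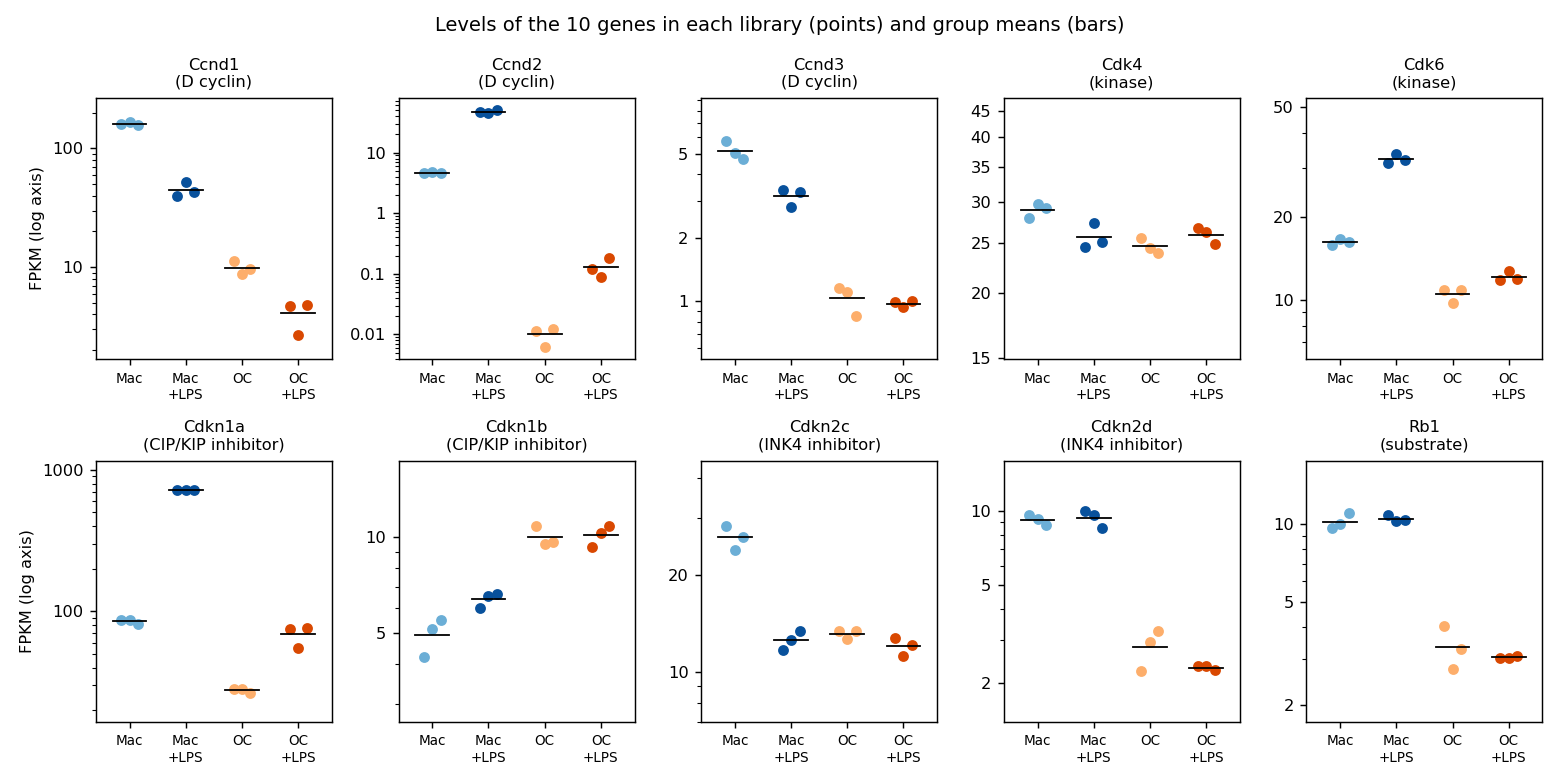
FPKM of each of the 10 genes on a log axis, in untreated macrophages (Mac), LPS-treated macrophages (Mac +LPS), untreated osteoclasts (OC) and LPS-treated osteoclasts (OC +LPS). Points are the 3 libraries of a group and bars the group means, and each panel has its own axis, so that Cdk4 spans only 23.9 to 29.8 FPKM while Ccnd2 spans 0.006 to 50.0 FPKM.

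Ccnd1 (ENSMUSG00000070348, chromosome 7, 144929931 to 144939925, minus strand, GENCODE M21 on GRCm38) encodes cyclin D1, the D cyclin classically induced by M-CSF in macrophages. It was at 162, 166 and 158 FPKM in untreated macrophages and at 39.9, 51.8 and 42.7 FPKM after LPS. The groups did not overlap, and Ccnd1 fell by 1.84 on the log2 scale (SE 0.16, adjusted p = 4.74e-07), a 3.61-fold lower mean. In untreated osteoclasts it was at 11.2, 8.78 and 9.58 FPKM, far under every macrophage library. That was 16.4-fold lower than in untreated macrophages (log2 difference -3.91, SE 0.16, adjusted p = 2.59e-10). After LPS the osteoclast libraries stood at 4.76, 2.70 and 4.81 FPKM, again under all untreated ones. Ccnd1 fell there by 1.12 (SE 0.16, adjusted p = 3.52e-04), a 2.41-fold lower mean. Replicate 2 was the lowest of the LPS-treated osteoclast libraries, and without it the log2 difference was -0.90 (adjusted p = 1.19e-04). The fall was smaller in osteoclasts by 0.72 on the log2(FPKM + 1) scale (SE 0.22, adjusted p = 0.0152). With a pseudocount of 0.1 in place of 1 that difference was 0.57 and no longer called (adjusted p = 0.0899).

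Ccnd2 (ENSMUSG00000000184, chromosome 6, 127125162 to 127152193, minus strand) encodes cyclin D2. In untreated macrophages its libraries lay close together, at 4.54, 4.71 and 4.64 FPKM. After LPS they were at 46.9, 45.9 and 50.0 FPKM, roughly an order of magnitude above. Ccnd2 rose by 3.11 on the log2 scale (SE 0.05, adjusted p = 2.59e-13), a 10.3-fold higher mean. In untreated osteoclasts Ccnd2 was at the limit of detection, with 2, 1 and 2 reads in the 3 libraries. Against a floor set at 3 reads per library, its mean was 253-fold lower than in untreated macrophages (log2 difference -2.48). This floor is a convention without an interval, so folds against it are approximate. Ccnd2 reached 1 FPKM only in macrophages and was tested only for that reason. Its being lower in osteoclasts, without or with LPS, is therefore a description. LPS-treated osteoclasts had 22, 13 and 31 reads, or 0.118, 0.090 and 0.181 FPKM, with a mean 7.07-fold higher than the untreated floor. The groups did not overlap, but the difference of 0.16 (95% interval 0.05 to 0.27) was not called (adjusted p = 0.0513). It was called with a pseudocount of 0.1 (1.04, adjusted p = 1.50e-04), after rescaling to TPM (0.39, adjusted p = 0.00468), without a variance trend (adjusted p = 0.0348), without LPS-treated osteoclast replicate 2 (0.19, adjusted p = 0.0397) and by voom on recovered reads (3.32, adjusted p = 2.62e-04). With LPS, Ccnd2 was 368-fold lower in osteoclasts than in macrophages by means (log2 difference -5.43), again a description. The LPS effects differed by -2.95 on the log2(FPKM + 1) scale (SE 0.07, adjusted p = 3.88e-11), but by -0.04 in voom (adjusted p = 0.965), where untreated osteoclasts enter with 1 or 2 reads.

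Ccnd3 (ENSMUSG00000034165, chromosome 17, 47505051 to 47599691, plus strand) encodes cyclin D3, the D cyclin that many differentiated cells express. It was at 5.77, 5.05 and 4.73 FPKM in untreated macrophages and 3.37, 2.80 and 3.28 FPKM after LPS. It fell by 0.57 (SE 0.08, adjusted p = 5.71e-05), a 1.64-fold lower mean with no overlap. In osteoclasts it lay near 1 FPKM with and without LPS, at 0.852 to 1.15 FPKM in untreated libraries and 0.939 to 0.999 FPKM in treated ones. The LPS difference there was -0.04 (95% interval -0.22 to 0.14, adjusted p = 0.783), with overlapping libraries. The macrophage and osteoclast LPS effects on Ccnd3 differed by 0.53 (SE 0.12, adjusted p = 0.00212).

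The D cyclins therefore differed in make-up between groups. Summed over Ccnd1, Ccnd2 and Ccnd3, their level was 172 ± 4.26 FPKM in untreated macrophages, 95.6 ± 5.21 FPKM after LPS, 10.9 ± 1.29 FPKM in untreated osteoclasts and 5.19 ± 1.27 FPKM in treated ones (SD, n = 3). Ccnd1 made up 94.3% ± 0.245 of that sum in untreated macrophages and 46.8% ± 4.13 after LPS (SD, n = 3). Ccnd2 went from 2.70% ± 0.069 to 49.9% ± 3.67 of the sum in the same libraries, so that after LPS neither of the pair was clearly the higher: Ccnd2 was above Ccnd1 in replicates 1 and 3 and under it in replicate 2. In osteoclasts Ccnd1 kept the largest share, 90.3% ± 1.5 without LPS and 77.9% ± 4.81 with it (SD, n = 3). Ccnd3 came next there, with 9.56% ± 1.52 and 19.6% ± 4.85, although its own level did not change by the test, and Ccnd2 had 0.092% ± 0.028 and 2.48% ± 0.506. These shares are a description with no test. Counted in recovered reads, which weight the longer Ccnd2 transcript more, Ccnd2 held 65.3% of the D-cyclin reads in LPS-treated macrophages and Ccnd1 30.7%.

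**Figure D2:**
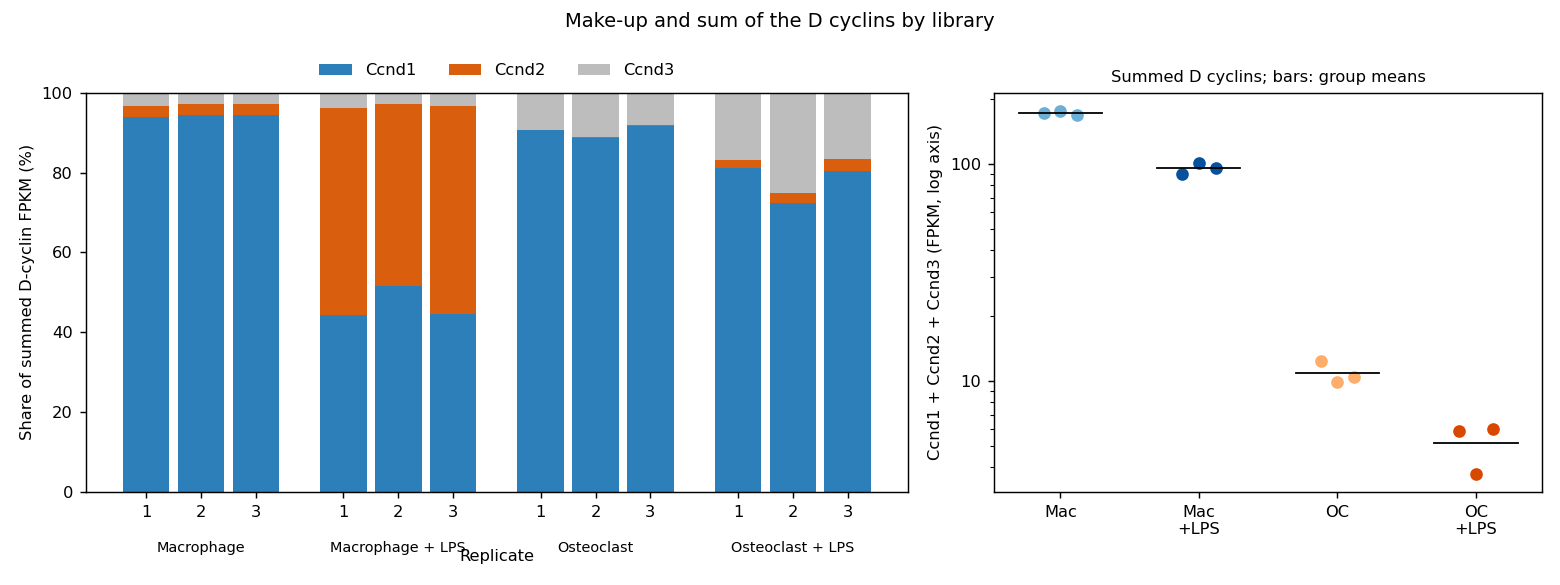
Left, the percentage of the summed D-cyclin FPKM given by Ccnd1, Ccnd2 and Ccnd3 in each of the 12 libraries, with replicate numbers under the bars. Right, the sum itself in FPKM on a log axis for macrophages (Mac) and osteoclasts (OC) without and with LPS, with group means as bars. Ccnd2 takes 45.7% to 52.1% in LPS-treated macrophages and at most 3.02% in any other group.

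Cdk4 (ENSMUSG00000006728, chromosome 10, 127063534 to 127067920, plus strand) was, in the deposited FPKM, the steadiest of the 10 genes, between 23.9 and 29.8 FPKM over all libraries. It was at 27.9, 29.8 and 29.2 FPKM in untreated macrophages and 24.6, 27.3 and 25.1 FPKM after LPS. This fall of 0.17 (SE 0.05, adjusted p = 0.00907) passed the test with a mean only 1.13-fold lower. It depended on the scaling of libraries, with -0.81 after rescaling to TPM (adjusted p = 2.22e-08) and -0.64 after quantile normalization (adjusted p = 9.29e-08). Without LPS it was lower in osteoclasts than in macrophages by 0.23 (log2 difference -0.23, SE 0.05, adjusted p = 0.00109), which was -0.64 with TPM and -0.38 with quantile scaling. With LPS the difference was 0.01 (95% interval -0.09 to 0.12, adjusted p = 0.803), and in osteoclasts the LPS difference was 0.07 (95% interval -0.03 to 0.18, adjusted p = 0.352), which turned to -0.01 after quantile normalization. The difference with LPS also turned negative, down to -0.02, when 1 of LPS-treated macrophage replicates 1 and 3 or osteoclast replicate 1 was left out, and it was a called 0.17 with TPM scaling (adjusted p = 0.00906) and 0.25 with quantile scaling (adjusted p = 2.53e-04). The 2 LPS effects on Cdk4 differed by 0.24 (SE 0.07, adjusted p = 0.0109), and by 0.82 with TPM and 0.63 with quantile scaling. Cdk4 shares 641 exon bases, 19.7% of its length, with Tspan31 on the opposite strand, and strand use in counting is not stated, so its small differences are uncertain.

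Cdk6 (ENSMUSG00000040274, chromosome 5, 3341485 to 3531008, plus strand) encodes the other D-cyclin kinase and was less even. Its libraries were at 15.7, 16.5 and 16.2 FPKM in untreated macrophages and 31.1, 33.6 and 32.1 FPKM after LPS, and so did not overlap. Cdk6 rose by 0.96 (SE 0.05, adjusted p = 4.52e-09), a 2.00-fold higher mean, by 0.53 with quantile scaling and by 0.35 after rescaling to TPM. In osteoclasts it was at 10.9, 9.74 and 10.8 FPKM untreated and 11.8, 12.6 and 11.9 FPKM after LPS, a small step in the same direction. The rise of 0.19 (SE 0.05, adjusted p = 0.0199) was not called when rescaled to TPM (0.13, adjusted p = 0.167), when quantile-normalized (adjusted p = 0.0838), with only the 2 groups compared (adjusted p = 0.0777), without untreated osteoclast replicate 2 (adjusted p = 0.0777) or without LPS-treated osteoclast replicate 2 (adjusted p = 0.0593). The rise was larger in macrophages by 0.77 on the log2 scale (interaction -0.77, SE 0.07, adjusted p = 1.88e-06), but only by 0.39 with quantile scaling (interaction -0.39, adjusted p = 4.20e-04) and by 0.21 with TPM scaling (interaction -0.21, adjusted p = 0.0456). The Cdk6 to Cdk4 ratio in FPKM was 0.558 ± 0.006 in untreated macrophages, 1.26 ± 0.025 after LPS, 0.426 ± 0.027 in untreated osteoclasts and 0.467 ± 0.024 in treated ones (SD, n = 3). Cdk6 was thus above Cdk4 only in the 3 LPS-treated macrophage libraries.

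The 250 bases upstream of a RefSeq start site (GRCm38.p6) were at hand for 7 of the 10 genes, not for Ccnd1, Ccnd2 and Rb1. The windows of Cdk4 and Cdk6 are shown because the paired kinases responded differently to LPS in macrophages. Capitals mark the E-box CACGTG, the GC box GGGCGG (which reads CCGCCC from the other strand) and the TATA box TATAAA. Cdk4 at chr10:127063285-127063534 and Cdk6 at chr5:3343643-3343892, both on the plus strand, read as follows.
Cdk4: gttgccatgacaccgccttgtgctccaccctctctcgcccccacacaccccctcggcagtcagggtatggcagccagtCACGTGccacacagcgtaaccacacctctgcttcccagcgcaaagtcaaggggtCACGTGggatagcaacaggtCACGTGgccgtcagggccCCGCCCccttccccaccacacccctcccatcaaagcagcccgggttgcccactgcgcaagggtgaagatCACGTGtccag
Cdk6: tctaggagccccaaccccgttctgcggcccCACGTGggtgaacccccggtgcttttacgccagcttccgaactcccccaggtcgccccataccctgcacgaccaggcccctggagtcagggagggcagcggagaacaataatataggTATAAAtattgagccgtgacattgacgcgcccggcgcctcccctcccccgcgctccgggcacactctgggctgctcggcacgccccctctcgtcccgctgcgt
The Cdk4 window holds 4 E-boxes, with first bases 172, 118, 98 and 11 bases before the start, and 1 GC box. E-boxes are the sites that MYC and related factors recognise, and Cdk4 is a textbook MYC target. At least 1 E-box was present in 6.02% of the 32851 promoter windows of the same length. The Cdk6 window holds 1 E-box 220 bases and 1 TATA box 103 bases before the start, and TATAAA was present in 12.4% of windows. A match is a description of the letters, not a bound site. Beside it, Myc was at 23.7 ± 1.34 FPKM in untreated macrophages and 1.82 ± 0.483 FPKM after LPS (SD, n = 3). Myc fell by 3.14 (adjusted p = 1.11e-10). In osteoclasts Myc was at 9.57 ± 0.431 and 10.9 ± 1.07 FPKM (SD, n = 3; log2 difference 0.16, adjusted p = 0.353).

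Cdkn1a (ENSMUSG00000023067, chromosome 17, 29090976 to 29100727, plus strand), which encodes p21, was the second highest of these genes in untreated macrophages, at 87.0, 86.9 and 80.8 FPKM. After LPS it stood at 718, 726 and 724 FPKM, and its libraries differed little within either group. It rose by 3.08 on the log2 scale (SE 0.10, adjusted p = 6.01e-11), an 8.51-fold higher mean. Untreated osteoclasts were at 28.2, 28.4 and 26.5 FPKM, 3.07-fold lower than untreated macrophages (log2 difference -1.58, SE 0.10, adjusted p = 1.95e-08), yet Cdkn1a was the highest of the 10 genes in them. After LPS they were at 75.4, 54.6 and 76.5 FPKM, so that even the highest treated osteoclast library stayed under the untreated macrophages. Cdkn1a rose there by 1.27 (SE 0.10, adjusted p = 2.92e-06), a 2.49-fold higher mean. The rise was smaller in osteoclasts by 1.81 (interaction -1.81, SE 0.14, adjusted p = 4.71e-07), and with LPS Cdkn1a was 10.5-fold lower in osteoclasts (log2 difference -3.39, SE 0.10, adjusted p = 1.24e-11).

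LPS-treated osteoclast replicate 2 was the lowest of its group for Cdkn1a, Ccnd1, Ccnd2, Ccnd3 and Cdkn2c and the highest for Cdk6 and Cdkn2d. The same library was the lowest of its group for 5 of 6 LPS response markers, all but Nfkbia, and for 6 of 8 macrophage markers, all but Csf1r and Cd68, for which it was the highest. It was the highest for 7 of 10 osteoclast markers and the lowest for the other 3. Tnf was at 107 FPKM in it against 159 FPKM in both others, and Cxcl10 at 141 against 240 and 260 FPKM. The F4/80 gene Adgre1 was at 42.5 against 73.1 and 70.9 FPKM, and Cd14 at 34.2 against 54.6 and 46.9 FPKM, while Csf1r was at 304 against 286 and 289 FPKM. Their part in the values of the 10 genes was not tested. Without this library the rise of Cdkn1a in osteoclasts was 1.42 (adjusted p = 1.29e-09).

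RefSeq gives 2 start sites for Cdkn1a, whose upstream windows are shown because it reached the highest level of the set. The first lies at chr17:29090729-29090978 and the second at chr17:29093519-29093768, both on the plus strand of GRCm38.p6, with GC boxes in capitals.
Cdkn1a first start: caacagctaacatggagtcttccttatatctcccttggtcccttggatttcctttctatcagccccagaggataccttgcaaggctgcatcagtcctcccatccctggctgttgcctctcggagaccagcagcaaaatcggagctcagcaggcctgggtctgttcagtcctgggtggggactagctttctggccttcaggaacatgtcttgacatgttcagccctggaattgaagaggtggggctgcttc
Cdkn1a second start: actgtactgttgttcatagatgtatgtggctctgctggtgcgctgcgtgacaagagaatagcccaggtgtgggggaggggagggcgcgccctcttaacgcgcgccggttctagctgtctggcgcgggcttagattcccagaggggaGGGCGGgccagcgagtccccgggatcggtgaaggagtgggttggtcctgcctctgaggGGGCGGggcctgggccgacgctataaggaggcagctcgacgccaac
None of the following motifs, searched on both strands, was found in either window: the E2F motif TTTCGCGC and its variant TTTGGCGC, the AP-1 motif TGANTCA, the CRE motif TGACGTCA, the GAS motif TTCNNNGAA, the E-box and the TATA box. This says only that these letters are not in these windows. The shares of all windows with a match were 0.256% and 0.417% for the E2F motifs, 6.75% for AP-1, 1.55% for CRE and 7.02% for GAS. The second window holds 2 GC boxes, 104 and 46 bases before the start, a motif present in 32.7% of windows. Gene-level FPKM does not separate transcripts from the 2 starts.

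Cdkn1b (ENSMUSG00000003031, chromosome 6, 134920401 to 134925513, plus strand), which encodes p27, ran against the others. Its untreated macrophage libraries were at 4.23, 5.15 and 5.48 FPKM and its untreated osteoclast libraries at 10.8, 9.49 and 9.64 FPKM, with no overlap. It was higher in osteoclasts by 0.89 (SE 0.08, adjusted p = 8.95e-07), 2.02-fold by means, and with LPS by 0.59 (SE 0.08, adjusted p = 3.04e-05), 1.59-fold. In macrophages after LPS it was at 6.01, 6.54 and 6.63 FPKM, a rise of 0.32 (SE 0.08, adjusted p = 0.00507) that turned into a fall of 0.26 after rescaling to TPM (adjusted p = 0.0317). In osteoclasts LPS gave 9.30, 10.3 and 10.8 FPKM, which overlapped the untreated libraries. That difference was 0.02 (95% interval -0.16 to 0.21, adjusted p = 0.889), and it turned to -0.04 with either TPM or quantile scaling. The 2 LPS effects on Cdkn1b differed by -0.29 (95% interval -0.56 to -0.03), which was not called (adjusted p = 0.0525), was called under 7 of 20 settings (among them without untreated macrophage replicate 3, adjusted p = 0.0245, LPS-treated macrophage replicate 1, adjusted p = 0.0456, or LPS-treated osteoclast replicate 3, adjusted p = 0.0402) and turned to 0.21 after rescaling to TPM. Cdkn1a made up 94.5% of the summed Cdkn1a and Cdkn1b FPKM in untreated macrophages, 99.1% after LPS, 73.5% in untreated osteoclasts and 86.9% in treated ones.

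The INK4 genes differed from each other. Cdkn2c (ENSMUSG00000028551, chromosome 4, 109660876 to 109667189, minus strand; p18) was at 28.3, 24.0 and 26.3 FPKM in untreated macrophages and in no library of the other 3 groups above 13.4 FPKM. After LPS its macrophage libraries were at 11.7, 12.6 and 13.4 FPKM, a fall of 1.00 (SE 0.07, adjusted p = 5.51e-08) or 2.09-fold. Untreated osteoclasts were at 13.4, 12.6 and 13.4 FPKM, lower than untreated macrophages by 0.94 on the log2 scale (log2 difference -0.94, SE 0.07, adjusted p = 6.66e-08). So LPS-treated macrophages and both osteoclast groups lay in 1 range. With LPS the cell types differed by -0.06 (95% interval -0.21 to 0.09, adjusted p = 0.420), a sign that turned with TPM scaling (0.09) and with quantile normalization (0.10). In osteoclasts LPS gave 12.7, 11.2 and 12.1 FPKM (log2 difference -0.12, 95% interval -0.27 to 0.03, adjusted p = 0.255). The LPS effects on Cdkn2c differed by 0.88 (SE 0.10, adjusted p = 8.25e-06).

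Cdkn2d (ENSMUSG00000096472, chromosome 9, 21288410 to 21291407, minus strand; p19) was at 9.59, 9.29 and 8.82 FPKM in untreated macrophages and 10.0, 9.62 and 8.54 FPKM after LPS. The libraries overlapped, and the difference was 0.02 (95% interval -0.18 to 0.22, adjusted p = 0.855), which became a called -0.60 after rescaling to TPM (adjusted p = 1.96e-04) and -0.16 after quantile normalization. In untreated osteoclasts Cdkn2d was at 2.24, 2.93 and 3.25 FPKM, 3.29-fold lower (log2 difference -1.44, SE 0.09, adjusted p = 1.59e-08). LPS-treated osteoclasts were at 2.34, 2.35 and 2.26 FPKM, on 57 to 87 reads per osteoclast library, and overlapped the untreated ones. That difference of -0.19 (95% interval -0.38 to 0.01, adjusted p = 0.175) was called without untreated osteoclast replicate 1 (-0.30, adjusted p = 0.0144). The interaction for Cdkn2d was -0.21 (95% interval -0.49 to 0.07, adjusted p = 0.181), called without that same library (-0.32, adjusted p = 0.0130) and turned to 0.31 after rescaling to TPM. Cdkn2c made up 73.9% of the summed INK4 pair in untreated macrophages, 57.2% after LPS, and 82.4% and 83.8% in osteoclasts without and with it. This pair leaves out the other INK4 genes, Cdkn2a and Cdkn2b. In untreated osteoclasts these were at 8.52 and 15.5 FPKM, beside 13.1 FPKM for Cdkn2c.

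Rb1 (ENSMUSG00000022105, chromosome 14, 73183673 to 73325822, minus strand), the substrate, had a pattern like that of Cdkn2d. It was at 9.66, 10.0 and 11.0 FPKM in untreated macrophages and 10.8, 10.3 and 10.3 FPKM after LPS, with overlapping libraries. The difference was 0.03 (95% interval -0.16 to 0.23, adjusted p = 0.750), which became a called -0.59 after rescaling to TPM (adjusted p = 1.97e-04) and -0.19 after quantile normalization. In osteoclasts Rb1 was at 4.04, 2.75 and 3.28 FPKM untreated and 3.04, 3.04 and 3.08 FPKM with LPS. It was lower there than in macrophages by 3.05-fold without LPS (log2 difference -1.37, SE 0.09, adjusted p = 2.01e-08) and 3.43-fold with it (log2 difference -1.5, SE 0.09, adjusted p = 6.41e-09). The LPS difference in osteoclasts was -0.09 (95% interval -0.29 to 0.10, adjusted p = 0.519), and 0.02 without untreated osteoclast replicate 1. The interaction for Rb1 was -0.13 (95% interval -0.40 to 0.14, adjusted p = 0.410), turned to 0.06 after quantile normalization and became a called 0.42 after rescaling to TPM (adjusted p = 0.0222). Rb1 shares 488 and 408 exon bases with Rcbtb2 and Lpar6 on the opposite strand, and Rcbtb2 reached 2724 reads where Rb1 reached 1472, so its values are uncertain.

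Exon sequence shared with opposite-strand genes touches other members too. Ccnd1 shares 1100 bases, 23.4% of its exon length, with a gene that had at most 386 reads, against up to 18396 for Ccnd1. Ccnd3 shares 361 bases with Bysl, which had up to 545 reads against 1173 for Ccnd3. Ccnd2, Cdk6 and Cdkn1a share 273 to 372 bases with genes of at most 100 reads. Cdkn1b, Cdkn2c and Cdkn2d share none.

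Counted over the set, LPS in macrophages changed 8 of the 10 genes, 4 higher (Ccnd2, Cdk6, Cdkn1a and Cdkn1b) and 4 lower (Ccnd1, Ccnd3, Cdk4 and Cdkn2c). Of all genes tested 69.9% were called, as above, 36.8% higher and 33.1% lower, so the count is close to that background. In osteoclasts 3 of the 10 changed, Cdk6 and Cdkn1a higher and Ccnd1 lower, where 17.7% of all genes were called, 11.1% higher and 6.59% lower. Without LPS all 10 were called between the cell types, 9 lower in osteoclasts and Cdkn1b higher, where 77.8% of all genes were called, 38.8% higher and 39.0% lower. The median log2 difference of the 10 was -1.40 in that comparison, against 0 over all genes. Ccnd2 is among the 9 and in the median, but reached 1 FPKM only in macrophages. Its being lower in osteoclasts, without or with LPS, is therefore a description. With LPS 8 differed, 7 lower and Cdkn1b higher, beside 83.9% of all genes, 40.9% higher and 43.0% lower. The median of the 10 was then -1.42, against -0.02. The LPS effect differed between cell types for 7 genes, 4 toward higher in osteoclasts (Ccnd1, Ccnd3, Cdk4 and Cdkn2c) and 3 toward lower (Ccnd2, Cdk6 and Cdkn1a), where 56.6% of all genes were called, 26.6% higher and 30.0% lower. These comparisons share libraries and are not independent of each other. With libraries rescaled to TPM the median over all tested genes stood at -0.55 for LPS in macrophages, -0.06 for LPS in osteoclasts, -0.38 and 0.12 between cell types without and with LPS, and 0.51 for the interaction. For LPS in macrophages the difference was then -2.50 for Ccnd1, -1.26 for Ccnd3, 2.44 for Cdkn1a and -1.68 for Cdkn2c, and after quantile normalization -2.55 for Ccnd1 and 2.26 for Cdkn1a. Between untreated cell types it was -4.20 for Ccnd2, -2.40 for Ccnd3, -1.02 for Cdk6, 0.57 for Cdkn1b and -2.02 for Cdkn2d with TPM scaling. The interaction was 1.2 for Ccnd1, -2.25 for Ccnd2, 1.15 for Ccnd3, -1.22 for Cdkn1a and 1.48 for Cdkn2c with TPM scaling, and 1.39 for Ccnd1 and -1.11 for Cdkn1a with quantile scaling. All of these were called, but for Ccnd2 the cell type difference is a description, as above. The Ccnd2 interaction depends on the pseudocount of 1. By the ratio of means, with untreated osteoclasts set at the floor, it was -0.54, and by voom -0.04. Apart from the reversals given beside Cdkn1b, Cdkn2c, Cdkn2d and Rb1, the 10 genes kept their direction with TPM scaling.

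**Figure D3:**
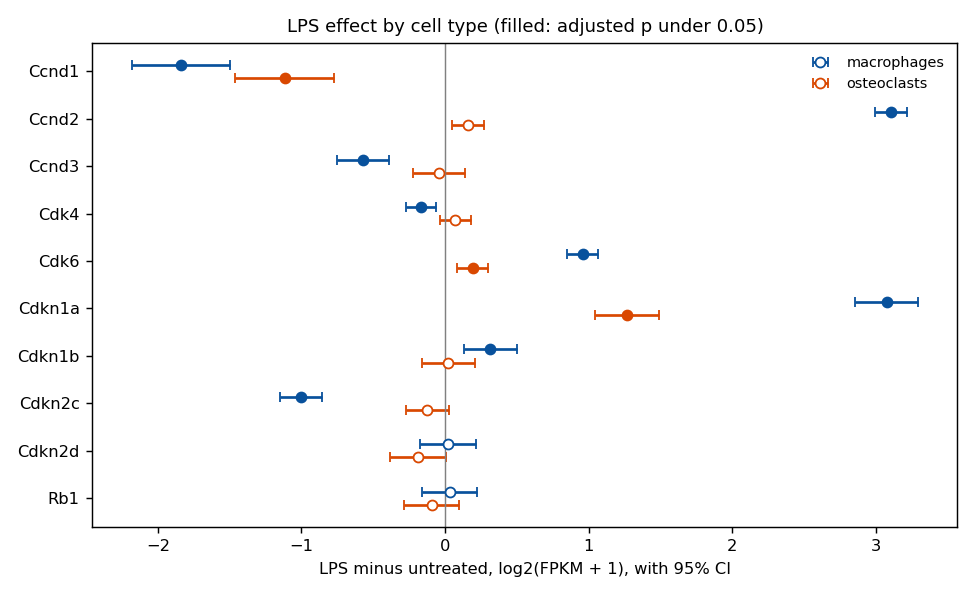
LPS effect on each of the 10 genes in macrophages and osteoclasts, as the difference of log2(FPKM + 1) between treated and untreated libraries, with 95% intervals from limma on 3 libraries per group. Filled points have an adjusted p under 0.05. Ccnd2 and Cdkn1a lie at 3.11 and 3.08 in macrophages and at 0.16 and 1.27 in osteoclasts.

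**Figure D4:**
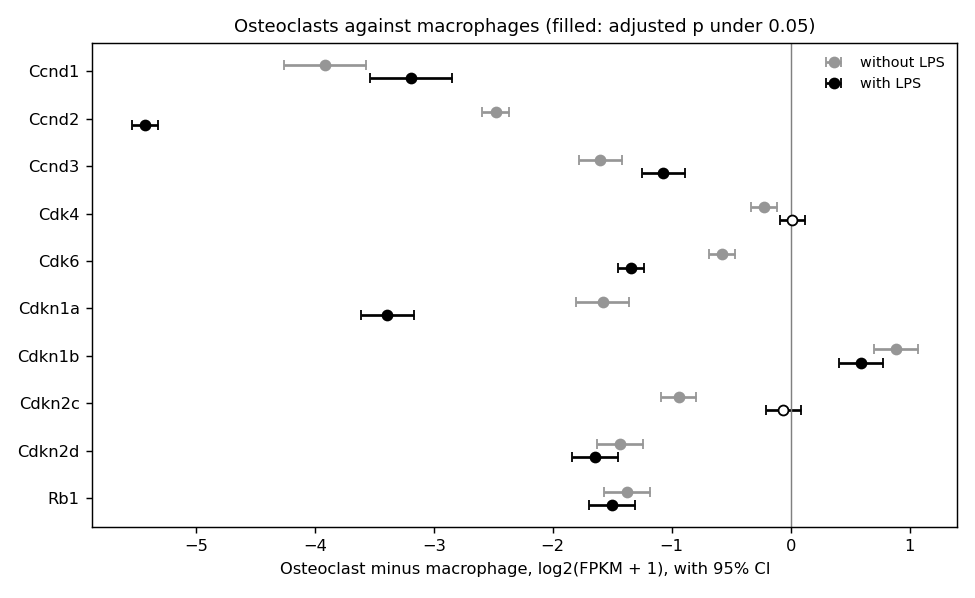
Difference of log2(FPKM + 1) between osteoclasts and macrophages for each gene, without and with LPS, with 95% intervals from limma on 3 libraries per group and filled points for an adjusted p under 0.05. Cdkn1b is the only gene to the right of 0 by the test in both comparisons, at 0.89 and 0.59. Ccnd2 reached 1 FPKM only in macrophages, so its points are a description.

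Set against each other within a library, Cdkn1a was above the summed D cyclins in every group but untreated macrophages. The ratio of Cdkn1a to summed D-cyclin FPKM was 0.494 ± 0.012 in untreated macrophages, 7.57 ± 0.376 after LPS, 2.56 ± 0.294 in untreated osteoclasts and 13.4 ± 1.06 in treated ones (SD, n = 3). No library of a group overlapped another group in this ratio. A single scale factor per library cancels in it. Quantile normalization does not, and the ratio was not computed under it.

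Partners and downstream genes of the pathway were followed as lists chosen with earlier results of these data known. Of 28 G1/S partners, LPS in macrophages raised 6 and lowered 19 (median log2 difference -0.35, against 0.02 over all genes, of which 36.8% were called higher and 33.1% lower), and after rescaling to TPM only 1 was higher. E2f2, an activator E2F, was at 7.38 ± 0.131 FPKM in untreated macrophages and 0.483 ± 0.057 FPKM after LPS (SD, n = 3). E2f2 and E2f7 reached 1 FPKM only in untreated macrophages and were tested only for that reason, so their being lower in the other groups is a description, and both are among the 19. Tfdp2, also among the 19, reached 1 FPKM in only 1 library outside untreated macrophages, so its fall is a description too. Skp2, the ubiquitin ligase subunit that targets p27, fell from 2.66 ± 0.181 to 0.405 ± 0.061 FPKM (log2 difference -1.38, adjusted p = 4.17e-09). The E cyclins, partners of CDK2, fell as well, Ccne1 by 0.61 and Ccne2 by 1.34. E2f5, an E2F that binds RB relatives, rose by 0.89 (adjusted p = 5.85e-07). Rbl1, the RB relative p107, rose by 0.69 (adjusted p = 1.19e-06), a rise that was 0.09 and not called with TPM scaling (adjusted p = 0.293). In osteoclasts 2 of the 28, E2f8 (0.26) and Fzr1 (0.26), rose and 4 fell with LPS, E2f2 (-0.69), Cdkn1c (-0.38) and Cdk2 (-0.30) among the latter, where 11.1% of all genes were called higher and 6.59% lower. These low counts depended on single libraries: 2 fell without untreated osteoclast replicate 1 or 3 or LPS-treated osteoclast replicate 1, and 1 rose without untreated osteoclast replicate 2 or LPS-treated osteoclast replicate 1 or 3. Without untreated macrophage replicate 1 or 2 also 2 fell, but E2f2 and E2f7 then missed the filter and 26 genes were tested.

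Between cell types without LPS, 6 of the 28 partners were higher in osteoclasts (2 with TPM scaling) and 19 lower, with a median of -0.70 against 0 over all genes, of which 38.8% were called higher and 39.0% lower. E2f2, E2f7, E2f8 and Tfdp2 are among the lower ones. They reached 1 FPKM only in macrophages, so their being lower in osteoclasts is a description. The other inhibitors of the same families were among the higher ones. Cdkn1c, which encodes the CIP/KIP inhibitor p57, was at 0.553 ± 0.079 FPKM in untreated macrophages and 5.88 ± 0.308 FPKM in osteoclasts (log2 difference 2.15). It reached 1 FPKM only in osteoclasts and was tested only for that reason, so its being higher there is a description. Cdkn2b, which encodes the INK4 inhibitor p15, was at 5.75 ± 0.601 and 15.5 ± 1.04 FPKM (log2 difference 1.30, adjusted p = 3.85e-07). Cdkn2a, the p16 and ARF locus, was at 5.16 ± 0.678 and 8.52 ± 1.21 FPKM (log2 difference 0.63, adjusted p = 0.00116), which with TPM scaling was 0.29 and not called (adjusted p = 0.0934). So Cdkn1b and Cdkn2b were higher in osteoclasts by the test, and Cdkn1c by description, while Cdkn1a, Cdkn2c and Cdkn2d were lower. Rbl1 was lower by 2.12 on the log2 scale (log2 difference -2.12), and for Rbl2, the relative p130, the difference was -0.08 (adjusted p = 0.244), a called -0.48 with TPM scaling and 0.02 with quantile scaling.

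All 19 S-phase and mitosis genes were lower in osteoclasts without LPS (median -2.49) and with it (median -1.95), where 39.0% and 43.0% of all genes were called lower. Of these, Tyms reached 1 FPKM in only 1 osteoclast library and was tested through macrophages, so its being lower is a description. Mki67 was at 37.6 ± 0.736 FPKM in untreated macrophages and 2.71 ± 0.107 FPKM in untreated osteoclasts. LPS lowered 10 of the 19 in macrophages and raised none (median -0.41), where 33.1% of all genes were called lower and 36.8% higher. The lowest were Plk1, a mitotic kinase, at -1.01 and Rrm2, a ribonucleotide reductase subunit, at -0.89. The number lower was 18 with TPM and 16 with quantile scaling, and 2 were higher by voom on recovered reads, 1 with only the 2 groups compared and 1 without LPS-treated osteoclast replicate 2. In osteoclasts 1 of the 19, Tk1, fell with LPS, where 6.59% of all genes were called lower and 11.1% higher. There 2 fell with TPM scaling, without untreated osteoclast replicate 2 or without LPS-treated osteoclast replicate 1, and 2 rose without LPS-treated osteoclast replicate 2. Pcna, for one, was at 164 ± 11.9 FPKM in untreated macrophages and 182 ± 11.8 FPKM after LPS (log2 difference 0.15, adjusted p = 0.119), which turned to a called -0.50 with TPM and -0.73 with quantile scaling.

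Cdkn1a is a classical p53 target, and of 15 other p53 pathway genes LPS raised 7 and lowered 8 in macrophages (median log2 difference -0.11, against 0.02 over all genes, of which 36.8% were called higher and 33.1% lower). Trp53 rose by 1.23 and Mdm2 by 1.23 (adjusted p = 1.08e-09 and 5.88e-10), Bbc3 by 1.58, while Sesn1 fell by 3.52 and Sesn2 by 1.52. After rescaling to TPM 4 of the 15 were higher. In osteoclasts 3 rose, among them Trp53 (0.31) and Mdm2 (0.17, not called with TPM or quantile scaling), and 4 fell, or 2 without untreated osteoclast replicate 3 (11.1% of all genes were called higher and 6.59% lower). Of 13 FOXO and growth-factor control genes, 1 rose and 8 fell in macrophages with LPS (median -0.23), beside the same background. There 2 rose by voom and without untreated macrophage replicate 2 or LPS-treated macrophage replicate 3, and none with TPM scaling. In osteoclasts 1 of the 13, the ETS factor Ets2 (0.66), rose and 6 fell (median -0.08). Foxo3, an activator of Cdkn1b transcription, went from 5.74 ± 0.147 to 0.338 ± 0.017 FPKM (log2 difference -2.33, adjusted p = 1.62e-11), and in osteoclasts fell by 0.36. Dusp6, a feedback gene of the ERK pathway that also drives Ccnd1, fell by 4.73 in macrophages and 0.69 in osteoclasts. Csf1r, the M-CSF receptor, was not called for LPS in either cell type (-0.07 and -0.08), but was called lower in both with TPM (-0.72 and -0.15) and quantile scaling (-0.99 and -0.22).

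The genes most like each member over the 12 libraries were found by the root mean square difference between centred log2(FPKM + 1) profiles. For Ccnd1 they were Tlr13 (0.158), the ETS factor Etv5 (0.182) and Arhgap19 (0.299), and for Ccnd2 they were AI504432 (0.217), Kcna3 (0.225) and Ednrb (0.25). For Cdkn1a they were the interferon-response genes Trim30a (0.126), Oas1g (0.132) and Stat2 (0.143). Within a distance of 0.25 there were 2 genes for Ccnd1, 3 for Ccnd2 and 13 for Cdkn1a, but 443 for Cdk6 and 2764 for Cdk4, whose flat profile many genes share. For Cdk6 the nearest were Bcorl1, Ppp6r1 and Baz1a, for Cdkn1b Zbtb18, Nomo1 and Got2, for Cdkn2c Prokr1, Pi4kb and Zfp41, for Cdkn2d Aldh2, Wdfy4 and Csrp2, for Rb1 Hdac9, Eme1 and Pdlim5, for Ccnd3 B3galnt1, Cnrip1 and Stx2, and for Cdk4 Nagpa, Lrrc40 and Exosc5. Some of these are low genes, whose changes the pseudocount of 1 shrinks, so a small distance need not mean a like fold. Prokr1 went from 1.27 to 0.174 FPKM with LPS in macrophages. In untreated macrophages and untreated osteoclasts Cnrip1 was at 2.16 and 0.077 FPKM, and Hdac9 at 2.22 and 0.193 FPKM.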

How the data were processed

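RNA sequencing gave 12 libraries in 4 groups of 3, grouped by their labels. The authors deposited 1 table of FPKM values for all libraries. Per the submitters' processing notes, fastp, STAR, featureCounts, DESeq2 and build mm10 were used, and versions, annotation and strand setting are not given in the sources used here. The deposited FPKM values were whole multiples of a step per gene and library (within 0.02 of a whole read, with GENCODE M21 exon lengths on GRCm38) for 25015 of the 25854 genes above 0, or 96.8%. The scale factors so found lay within 0.148% of median-of-ratios size factors, so the values are relative to the typical gene. This and the annotation are inferred from the values. Library totals of these reads were 14875560 to 19278653, and counting intervals cover counting error only.

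The 11335 genes that reached 1 FPKM in 3 or more libraries were tested. Limma 3.58.1 in R 4.3.3 was fitted to log2(FPKM + 1) with 4 group means and a variance trend. Tests were two-sided, with Benjamini-Hochberg adjustment over all genes tested, and an adjusted p under 0.05 was a call. A pseudocount of 1 understates the change of low genes. The interaction subtracts the macrophage LPS effect from the osteoclast one. A group with 3 reads or fewer in each library was at the floor. Folds against it use the floor in place of the mean, a convention without an interval. The steps were also run on simulated data, in which far fewer genes changed than here and no cell type difference was set. That run cannot vouch for the calls in these data. Tables and figures were made with Python 3.11.15, pandas 2.3.3 and matplotlib 3.10.9.

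All 10 genes are named, with the 3 genes most like each in profile. Of each pathway list, the 2 highest and 2 lowest called genes in a contrast and known partners or regulators of the 10 could be named, and not all are. Pcna, Tfdp2 and Tyms were named after their values were seen. The 10 genes and all lists were chosen with earlier results of these data known. The alternatives tried were voom on the recovered reads, each library left out in turn, libraries rescaled to TPM or quantile-normalized, a smaller pseudocount (0.1), no expression filter or a stricter one (mean of 5 FPKM), eBayes without its trend, replicate blocks, and fits to 2 groups alone. Promoter windows of 250 bases are RefSeq's for GRCm38.p6.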

Additional observations from a re-analysis of the deposited data

Results flagged for a closer look

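The LPS effect differed between osteoclasts and macrophages by limma's interaction test for 7 of the 10 genes, which was the reason to look at them again (values are log2 differences of differences, osteoclasts minus macrophages). It was higher in osteoclasts, where the fall was smaller or not called, for Ccnd1 (0.72), Ccnd3 (0.53), Cdk4 (0.24) and Cdkn2c (0.88). It was lower, where the rise was smaller or not called, for Ccnd2 (-2.95), Cdk6 (-0.77) and Cdkn1a (-1.81). Over all genes tested 56.6% passed the same test. The value for Ccnd2 rests on 1 or 2 reads per untreated osteoclast library and was -0.04 by voom.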

How the results depend on the processing

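Of 1035 values of single genes under an alternative, 988 kept their direction and their side of the threshold, 7 lost a call, 16 gained one and 24 changed sign. No value changed in either way in the untreated cell type comparison. After rescaling to TPM the LPS effect in macrophages was -0.26 for Cdkn1b, -0.60 for Cdkn2d and -0.59 for Rb1, that in osteoclasts -0.045 for Cdkn1b, the cell type difference with LPS 0.091 for Cdkn2c, and the interaction 0.21 for Cdkn1b, 0.31 for Cdkn2d and 0.42 for Rb1. After quantile normalization the LPS effect in macrophages was -0.16 for Cdkn2d and -0.19 for Rb1, that in osteoclasts -0.0050 for Cdk4 and -0.039 for Cdkn1b, the difference with LPS 0.10 for Cdkn2c, and the interaction 0.061 for Rb1. Leaving out 1 library gave, for LPS in macrophages, -0.023 to 0.080 for Cdkn2d and -0.0028 to 0.082 for Rb1. For LPS in osteoclasts it gave -0.11 to 0.00080 for Ccnd3, -0.022 to 0.079 for Cdkn1b and -0.20 to 0.016 for Rb1, and between cell types with LPS -0.017 to 0.058 for Cdk4. Counted in recovered reads, which are not divided by length, the shares in untreated and treated macrophages and untreated and treated osteoclasts were 89.5%, 30.7%, 83.4% and 65.4% for Ccnd1, 5.12%, 65.3%, 0.170% and 4.15% for Ccnd2, and 5.34%, 4.04%, 16.4% and 30.4% for Ccnd3. In the same order Cdkn2c held 82.8%, 69.5%, 88.9% and 89.8% of the INK4 pair, and Cdkn1a 93.0%, 98.9%, 68.4% and 83.8% of the CIP/KIP pair. At a mean of at least 5 FPKM 6430 genes were tested, Ccnd3 not among them, and 4851, 5427, 5694 and 4018 were called, against 7921, 8822, 9509 and 6413, for LPS in macrophages, the cell types without and with LPS, and the interaction, with fewer genes tested. The interaction cannot be had from only the groups compared. Same-numbered libraries of different groups had correlations of their deviations between -0.070 and 0.104. The own number gave the highest correlation for every replicate between untreated and treated osteoclasts, and for none between untreated macrophages and untreated osteoclasts. Such low values cannot tell whether the libraries were paired, which is not known. With the replicate number as a block 8, 3, 10, 8 and 8 of the 10 genes were called, the interaction of Cdkn1b now among them (adjusted p = 0.0486). Low reads limit Ccnd2 in osteoclasts, and 57 to 87 reads per library limit Cdkn2d there.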
